A study of Solanum lycopersicum with 29 samples.

Results

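The 9 MADS-box genes described here specify floral organ identity, and they were taken as a fixed list of Solyc identifiers matched to the deposited tables without their version suffix, over all 8 groups. They are the B class genes TM6 (Solyc02g084630), TAP3 (Solyc04g081000), GLO1 (Solyc08g067230) and GLO2 (Solyc06g059970), the C class genes TAG1 (Solyc02g071730) and TAGL1 (Solyc07g055920), the E class genes TM5 (Solyc05g015750) and TM29 (Solyc02g089200), and the D class gene AGL11 (Solyc11g028020). All 9 were among the 35092 genes listed, and 8 passed the filter for low counts together with 21637 genes in all. AGL11 did not pass it. RefSeq (assembly SLM_r2.1) lists TM6, TAG1, TAGL1, TM5, TM29 and AGL11 under the same name or a synonym, on the chromosome that the identifier gives. TAP3 was taken as DEF (synonyms AP3 and LeDEF) and GLO2 as TPI (no synonym listed), which lie on the chromosomes of their identifiers. No RefSeq entry was matched to GLO1. The names GLO1 and GLO2 follow the list used here, and RefSeq gives the name GLO2 to a gene on another chromosome.

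Anther RNA of tomato cv. Micro-Tom was sequenced in 29 libraries, each made from 6 pooled anthers at the polarized microspore stage. The lines were wild type (WT), the ethylene-insensitive mutant Never ripe (NR), 35S::nahG, which is low in salicylic acid (SA) because the 35S promoter, active in most tissues, drives a salicylate hydroxylase taken from bacteria, and 35S::asCCD7, which carries an antisense construct against the strigolactone biosynthesis gene CCD7 under the same promoter. The transgenic lines are written nahG and asCCD7 below. Control temperature (CT) meant 25°C days, 19°C nights and 50% relative humidity, and long-term mild heat (LTMH), given from flowering, meant 34°C days, 28°C nights and 68% relative humidity, and anthers were taken after 8 days. Each line had 4 CT libraries. There were 4 LTMH libraries of asCCD7 and 3 of each other line, with 1 replicate number not analysed here in WT, NR and nahG. The labels name replicates without saying whether they came from separate plants, while the methods call them biological replicates, so p-values measure the spread between these libraries.

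Floral organs are specified by combinations of MADS-box proteins that bind DNA as multimers. B and C class proteins together with E class partners give stamens, C with E give carpels, and D class genes act in ovules. B class proteins work as heterodimers of a member of the DEF (APETALA3) type and a member of the GLO (PISTILLATA) type. In a stamen the genes stay on after the organ has been specified, and in Arabidopsis the C class protein AGAMOUS switches on SPOROCYTELESS, which starts the formation of the sporogenous cells and the anther wall.

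Per library, 32273189 to 42353956 reads were counted, with a median of 34474482, of which 5.68% to 12.1% fell on the 10 genes with the most reads. CCD7 had 277 to 638 reads in the 8 asCCD7 libraries and 7 to 127 in the other 21. Counting is not stated to use strand, so that reads of the antisense construct and of CCD7 cannot be told apart. The tapetum, the layer that feeds the microspores, differed in its markers. Levels are given as FPKM (fragments per kilobase of transcript and 1e6 fragments of library size, the authors' values). The summed FPKM of the 7 tapetal markers had a range of 30234 to 43678 in nahG CT and 1854 to 22377 in WT CT. It was 4348 to 12802 in NR CT and 109 to 7690.0 in asCCD7 CT, and it stayed between 139.6 and 1455 in LTMH. asCCD7 CT replicate 4 stood apart from its group with the lowest of these sums. In group means TomA108 made up most of each sum, with 35877 FPKM in nahG CT and 12872 in WT CT. AMS, CYP703A2, CYP704B1, WBC27 and TomA108 averaged highest in nahG CT. MS10 and TDF1 averaged less in nahG CT than in WT CT (0.963 against 12.7 FPKM and 0.543 against 1.32 FPKM), with overlapping libraries. The pollen marker LAT52 was above 1 FPKM in 3 libraries alone, NR LTMH replicate 4, nahG LTMH replicate 2 and asCCD7 LTMH replicate 3. The 4 carpel and ovule markers, AGL11 among them, summed to at most 0.756 FPKM in any library, and none averaged above 1 FPKM in any group. The sepal and meristem markers FUL1, WUS and JOINTLESS each averaged above 1 FPKM in every group. Their sums ranged from 19.4 to 80.3 FPKM over the libraries, with a median of 19.9 in nahG CT and 71.1 in nahG LTMH. In bulk samples such as these, fewer cells of a type and less RNA per cell cannot be told apart.

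Anthers expressed the B, C and E class members strongly and AGL11 hardly at all. GLO2, the more abundant GLO-type gene, was the highest, with group means from 1093 FPKM in nahG CT to 2399 FPKM in asCCD7 LTMH, at or above the 99.8 percentile of tested genes in every group. TAP3, the ortholog of APETALA3, followed with 719.6 to 940.2 FPKM. The SEPALLATA-like gene TM29 had 342 to 719.6 FPKM and GLO1 303 to 535 FPKM. Below them lay TM5, the SEPALLATA3-like partner (187 to 325 FPKM), TAG1, the AGAMOUS ortholog (119 to 296 FPKM), TM6, the second DEF-type gene (124 to 155 FPKM) and TAGL1, the second AGAMOUS-clade gene, known for its role in fleshy fruit (42.1 to 59.4 FPKM). The order GLO2, TAP3, TM29, GLO1, TM5, TAG1, TM6, TAGL1 and AGL11 of group means held in 7 of the 8 groups, and in nahG CT TM6 stood above TAG1 with overlapping libraries. Other neighbours whose libraries overlapped were TM29 and GLO1 in WT CT and in both groups of asCCD7, TAP3 and TM29 in WT LTMH, and TM5 and TAG1 in WT LTMH, nahG LTMH and both groups of NR.

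**Figure D1:**
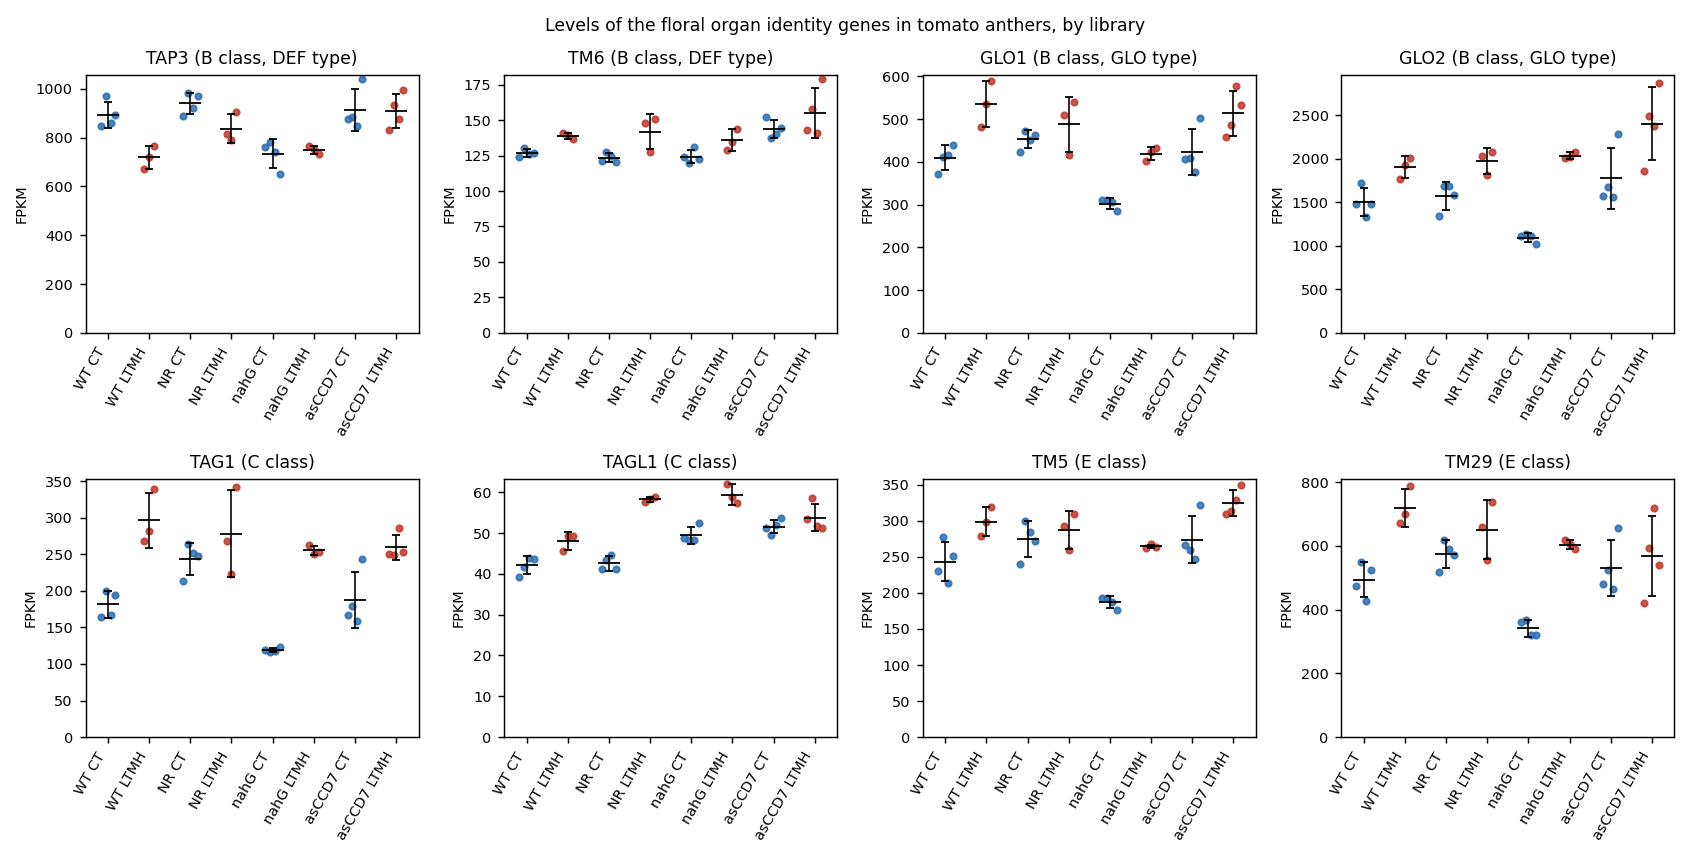
FPKM of the 8 members above the filter in each library, in 8 panels with the groups on the x axis and FPKM from 0 on the y axis. Points are libraries (blue CT, red LTMH), the bar is the group mean and the whiskers are ± SD (n = 3 or 4). nahG CT is the lowest group for GLO1, GLO2, TAG1, TM5 and TM29, with all 4 of its TAG1 values between 116.0 and 123 FPKM.

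AGL11, the ovule identity gene, was listed at between 0 and 14 reads. It had 0 reads in all 4 nahG CT libraries and 7, 5 and 3 reads in the nahG LTMH libraries. The 14 reads were in asCCD7 CT replicate 4, the library with the lowest tapetal sum, where the other replicates had 1, 2 and 0 reads. WT had 0, 3, 0 and 0 reads in CT and 3, 2 and 6 in LTMH. Most of these counts were at or below the 3 reads that were taken as the limit of detection (0.0870 reads per 1e6 at the median depth). The exceptions were 14 reads in asCCD7 CT, 7 and 5 in nahG LTMH, 6 in WT LTMH and 4 in NR LTMH. No fold change is given for AGL11, which did not pass the filter.

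Within each class a single gene gave most of the transcripts, measured as FPKM. TAP3 made up 87.5% ± 0.427 (SD, n = 4) of the DEF-type FPKM in WT CT, GLO2 78.4% ± 2.19 of the GLO-type, TAG1 81.1% ± 1.52 of the C class and TM29 67.0% ± 0.568 of the FPKM of the E class members TM5 and TM29. The share that departed most from WT CT was that of TAG1 in nahG CT, 70.6% ± 0.411 (n = 4). The share of GLO2 was 78.3% ± 0.168 in nahG CT and 82.9% ± 0.332 (n = 3) in nahG LTMH, so that GLO1 and GLO2 did not keep a fixed proportion there. These shares were not tested.

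GLO-type transcripts were more abundant relative to DEF-type transcripts in LTMH than in CT, a difference tested over the 4 lines together. The ratio of summed TAP3 and TM6 FPKM to summed GLO1 and GLO2 FPKM was 0.524, 0.515, 0.565 and 0.533 in the WT CT libraries and 0.362, 0.350 and 0.347 in the WT LTMH libraries. In NR it was 0.572, 0.514, 0.490 and 0.532 in CT and 0.378, 0.413 and 0.403 in LTMH. The nahG libraries had 0.625, 0.626, 0.615 and 0.592 in CT and 0.371, 0.363 and 0.350 in LTMH. In every line each LTMH library lay below each CT library of that line, and in asCCD7 the gap was narrow, with 0.520, 0.490, 0.512 and 0.425 in CT against 0.420, 0.366, 0.344 and 0.345 in LTMH. The log2 differences were −0.60 in WT, −0.40 in NR, −0.77 in nahG and −0.40 in asCCD7. Each had an exact two-sided permutation p of 0.0286, the smallest that the samples of a line allow, and of 0.0571 after Benjamini-Hochberg adjustment over the 10 comparisons of this ratio, which no line passed alone. Averaged over the lines, the log2 difference was −0.54, a ratio 0.687 times that in CT, with an exact permutation p within lines of 3.33e-07, the smallest possible. This averaged test was chosen after the data were seen. Without the 4 libraries whose markers stood apart (asCCD7 CT replicate 4 and the 3 libraries with LAT52) it was −0.56.

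In CT the ratio was also higher in nahG than in WT, by 0.20 on the log2 scale without overlap of the libraries (exact permutation p = 0.0286, adjusted 0.0571). In LTMH nahG and WT differed by 0.03 (exact permutation p = 0.200). With 3 libraries of each line the smallest possible p was 0.1, so this test could not pass.

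The balance of the C class genes also differed between temperatures as an average of the lines, although no line passed alone after adjustment and NR had the opposite sign. Averaged over the lines, the log2 ratio of TAGL1 to TAG1 FPKM was lower in LTMH by 0.38 (exact permutation p within lines = 0.00188, a test also chosen after the data were seen). The ratio of TAGL1 to TAG1 FPKM was 0.239, 0.208, 0.263 and 0.225 in WT CT and 0.411, 0.417, 0.410 and 0.428 in nahG CT, where it was the highest of all groups. In LTMH it was 0.170, 0.175 and 0.145 in WT and 0.236, 0.235 and 0.226 in nahG. The LTMH and CT libraries did not overlap in either line, with log2 differences of −0.52 in WT and −0.84 in nahG. Each had an exact permutation p of 0.0286, the smallest that the samples of a line allow, and of 0.0714 after adjustment. A line could thus not pass by its own values alone. In asCCD7 the difference was −0.43 (exact permutation p = 0.0571). In NR the difference had the opposite sign, 0.28, with libraries of 0.193, 0.164, 0.177 and 0.166 in CT and 0.214, 0.261 and 0.172 in LTMH that overlapped (exact permutation p = 0.143).

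**Figure D2:**
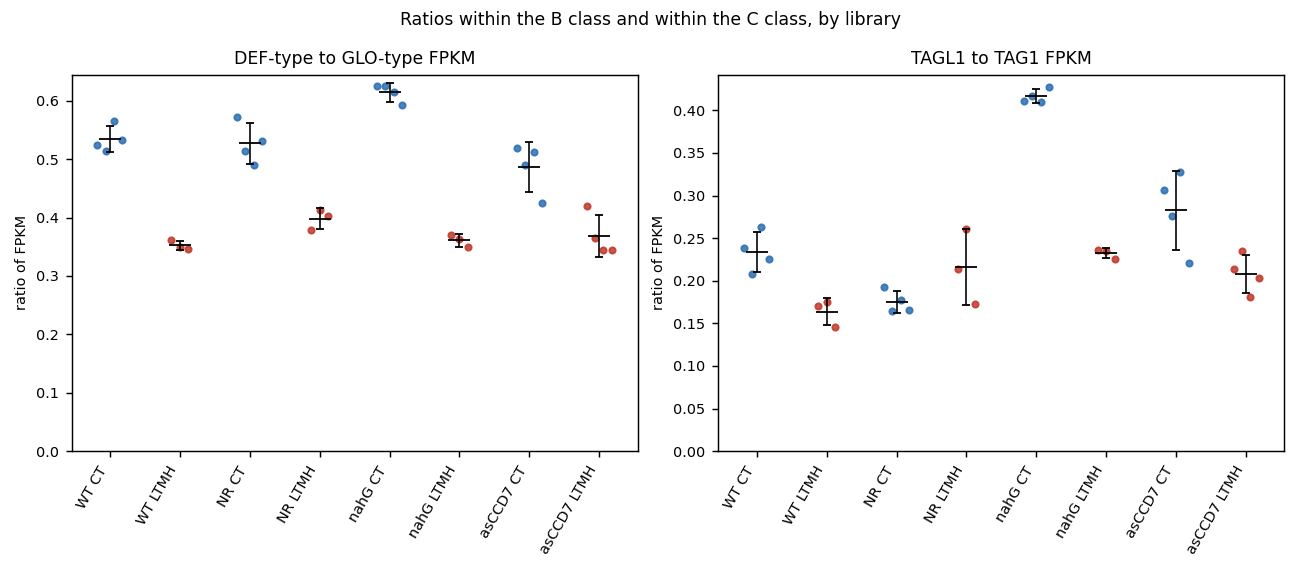
Ratio of DEF-type (TAP3 and TM6) to GLO-type (GLO1 and GLO2) FPKM, left, and of TAGL1 to TAG1 FPKM, right, by group on the x axis, from 0 on the y axis. Points are libraries (blue CT, red LTMH) and bars are means ± SD (n = 3 or 4). On the left all LTMH libraries lie at or below 0.420, and within each line no LTMH library reaches a CT library.

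The response of single members to LTMH was tested on read counts with edgeR, on all genes that passed the filter. A gene is said to have risen or fallen where its Benjamini-Hochberg adjusted p-value was under 0.05, and it is called a DEG (differentially expressed gene) where its fold change was also at least 1.5, the thresholds of the study. Averaged over the 4 lines, 7 of the 8 members rose and TAP3 fell, and 1 member, TAG1, was a DEG. Of all genes tested, 59.4% passed the adjusted p-value in either direction, 29.8% rose and 18.9% were DEGs in this comparison. TAG1 rose by 0.62 ± 0.0645 (SE, adjusted p = 1.89e-08) on the log2 scale, GLO2 by 0.50 ± 0.0641 (SE, adjusted p = 4.37e-07) and TM29 by 0.41 ± 0.0680 (SE, adjusted p = 1.58e-05). Smaller averaged rises were those of GLO1 (0.31), TM5 (0.28), TAGL1 (0.24) and TM6 (0.14). TAP3, the main DEF-type gene, fell by 0.11 on the log2 scale (adjusted p = 0.0229). The median log2 fold change was 0.293 over the members and 4.37e-04 over all genes tested. All 8 members also passed in the same direction without the 4 libraries whose markers stood apart. Without NR LTMH replicate 4, TAG1 rose by 0.58, just under the fold of a DEG. The tapetal marker AMS, an activator of tapetal genes, fell in the same averaged comparison by 1.85 on the log2 scale, and its part in the members' changes was not tested.

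**Figure D3:**
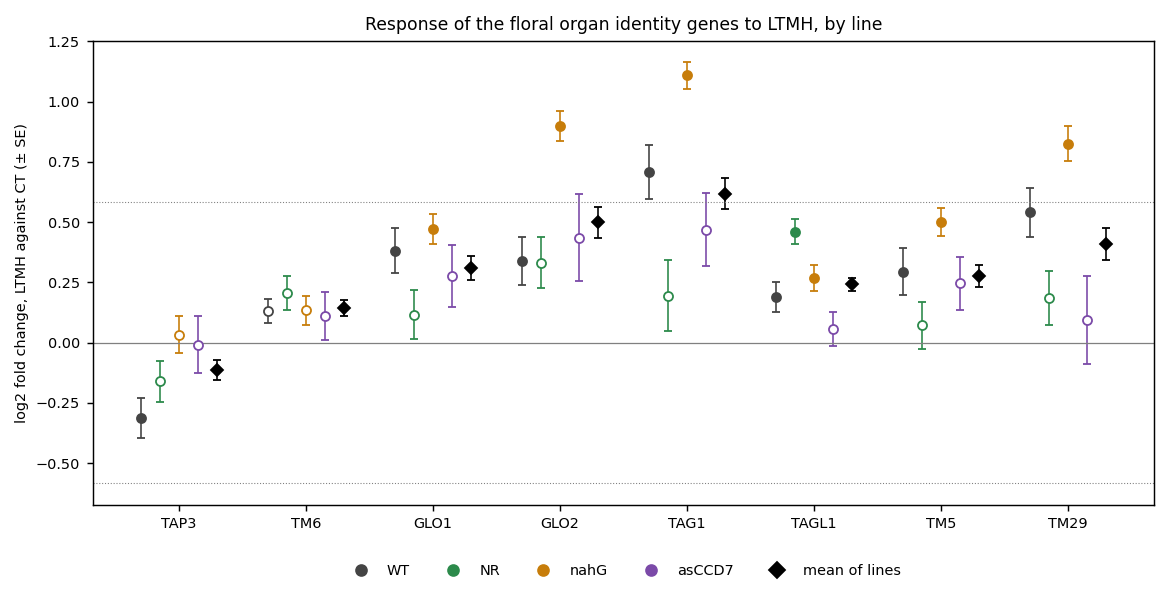
log2 fold change of LTMH against CT on the y axis for each member on the x axis, in WT, NR, nahG, asCCD7 and averaged over the lines (diamonds). Bars are ± SE, filled symbols passed an adjusted p-value of 0.05 and dotted lines mark a fold of 1.5. TAG1, GLO2 and TM29 in nahG and TAG1 in WT and averaged over the lines lie beyond the dotted line.

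In WT, GLO1, GLO2, TAG1, TAGL1, TM5 and TM29 rose in LTMH and TAP3 fell, which makes 7 of 8 members against 35.3% of all genes tested. The 6 that rose compare with 17.3% of all genes that rose. TAG1 was the only DEG, where 17.2% of all genes were. Its FPKM was 164, 200.0, 167 and 194 in the CT libraries and 268, 282 and 339 in the LTMH libraries, a log2 fold change of 0.71 ± 0.111 (SE, adjusted p = 0.00199). TM29 had 476, 549, 427 and 525 FPKM in CT and 671, 701 and 787 in LTMH, a log2 fold change of 0.54 ± 0.102 (SE, adjusted p = 0.00461). TAP3 went from 846, 969, 861 and 894 FPKM in CT to 672, 721 and 765 in LTMH (−0.31 ± 0.0829 SE, adjusted p = 0.0196). For all 8 members the CT and LTMH libraries of WT did not overlap in FPKM, TM6 included (124, 131, 126 and 127 in CT and 141, 139 and 137 in LTMH, adjusted p = 0.0683). This was so for 44.1% of all genes tested. The number of members that passed depended on single libraries. It was 4 without WT CT replicate 1, where 6252 of 21617 genes tested passed. It was 3 without WT CT replicate 4 (6526 of 21616 genes) or WT LTMH replicate 4 (5241 of 21607 genes). Without WT LTMH replicate 3 it was 2 (TAG1 and TM29), where 5354 of 21618 genes passed. With all WT libraries, 7626 of 21619 genes passed. TAG1 and TM29 passed in every alternative tried. Without WT CT replicate 2 or WT LTMH replicate 2 there were 2 DEGs in place of 1. Of all genes, 3999 of 21617 and 3421 of 21613 were DEGs in these fits.

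In nahG the same 6 members rose and none fell, 6 of 8 against 51.4% of all genes that passed and 26% that rose. GLO2, TAG1 and TM29 were DEGs, 3 of 8, where 27.5% of all genes were. TAG1 rose from 118, 116, 118 and 123 FPKM in CT to 263, 251 and 253 in LTMH, a log2 fold change of 1.11 ± 0.0564 (SE, adjusted p = 6.37e-07). GLO2 rose from 1109, 1129.6, 1115 and 1019 FPKM to 2010.3, 2019 and 2075, by 0.90 ± 0.0629 (SE, adjusted p = 4.01e-06). For TM29 the CT libraries had 362, 367, 319 and 319 FPKM and the LTMH libraries 619, 605 and 589, a log2 fold change of 0.82 ± 0.0730 (SE, adjusted p = 1.71e-05). TM5 (0.50), GLO1 (0.47) and TAGL1 (0.27) rose by less. These 6 members had CT and LTMH libraries that did not overlap, as did 55.4% of all genes. The DEF-type genes did not pass, with 0.03 for TAP3 (adjusted p = 0.743) and 0.13 for TM6 (adjusted p = 0.0898). The tapetal marker AMS fell by 3.09 on the log2 scale in nahG, and by 1.83 in WT.

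NR and asCCD7 gave fewer passing members. In NR only TAGL1 rose, 1 of 8 against 18.7% of all genes, and no member was a DEG (8.47% of all genes). By DESeq2 3 members passed, also without a DEG, where 5108 of 21546 genes tested passed. In edgeR 3 members had an unadjusted p-value under 0.05. TAGL1 had 41.1, 43.3, 44.6 and 41.1 FPKM in NR CT and 57.6, 58.3 and 58.8 in NR LTMH, narrow groups far apart (0.46 ± 0.0511 SE, adjusted p = 0.00184). TAG1 in NR had 213, 264, 252 and 247 FPKM in CT and 269, 224 and 342 in LTMH, where replicate 3 lay among the CT libraries (0.19, adjusted p = 0.382). In asCCD7 no member passed by edgeR, by the adjusted p-value (12.2% of all genes) or as a DEG (7.17%). There 2 members (GLO2 and TAG1) had an unadjusted p-value under 0.05. DESeq2 passed TAG1 alone, below the fold of a DEG, where 4190 of 21526 genes tested passed. A single fit over all 29 libraries passed 4 members, where 6929 of 21637 genes tested passed. TAG1 was nearest, with 167, 179, 159 and 243 FPKM in CT and 249.9, 249, 286 and 253 in LTMH (0.47, adjusted p = 0.0725). Its groups did not overlap, and the highest CT value was that of replicate 4. Without this library TAG1 rose by 0.62 (adjusted p = 0.0141) and was a DEG.

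Whether the lines differed in their response was tested as the interaction of line and temperature. For nahG against WT, GLO2 responded more strongly in nahG, by 0.56 ± 0.114 (SE, adjusted p = 0.00542) on the log2 scale. TAG1 (0.40 ± 0.126 SE, adjusted p = 0.0430) and TAP3 (0.34 ± 0.108 SE, adjusted p = 0.0429) also passed, where TAP3 fell in WT and had 0.03 in nahG. These were 3 of 8 members against 17.7% of all genes, and none reached the fold of a DEG (10.1% of all genes), although 1 member did without WT CT replicate 3 or without WT LTMH replicate 4. GLO2 passed in all but 1 of 20 alternatives, at 0.0554 in a single fit over all 29 libraries, while TAG1 and TAP3 each lost it in 13 of 20. For NR against WT, TAGL1 responded more in NR, by 0.26 ± 0.0750 (SE, adjusted p = 0.0490), 1 of 8 members against 9.13% of all genes, with no DEG (5.82%), and it lost this in 14 of 20 alternatives, while 1 member was a DEG without NR LTMH replicate 4. For asCCD7 against WT no member passed by edgeR (0.356% of all genes) or was a DEG (0.319%), 1 (TAP3) had an unadjusted p-value under 0.05 and DESeq2 passed 0.

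In CT, the low-SA line nahG had the lowest levels of most members. GLO1, GLO2, TAG1, TAP3, TM5 and TM29 were lower than in WT and TAGL1 was higher, 7 of 8 members against 35% of all genes. The 6 lower ones compare with 17.7% of all genes that were lower. TAG1 was the DEG, 1 of 8 where 16.4% of all genes were. Its FPKM was 118, 116, 118 and 123 in nahG and 164, 200.0, 167 and 194 in WT, a log2 fold change of −0.60 ± 0.0822 (SE, adjusted p = 5.74e-04). GLO2 had 1109, 1129.6, 1115 and 1019 FPKM in nahG and 1477, 1723, 1329.8 and 1475 in WT (−0.45 ± 0.0895 SE, adjusted p = 0.00421). TM29 was lower by 0.52 on the log2 scale, GLO1 by 0.43, TM5 by 0.37 and TAP3 by 0.27. TAP3 lost its call in 6 of 14 alternatives, with adjusted p-values of up to 0.0796. TAGL1 had 48.7, 48.4, 48.2 and 52.5 FPKM in nahG and 39.1, 41.6, 44.0 and 43.7 in WT, the reverse order (0.24 ± 0.0571 SE, adjusted p = 0.00991). For these 7 members the libraries of both lines did not overlap, as for 35.1% of all genes. TM6 did not pass (−0.02, adjusted p = 0.789). TAG1 fell below the fold of a DEG without WT CT replicate 2 or WT CT replicate 4, with log2 fold changes of −0.56 and −0.58. Without WT CT replicate 3 there were 2 DEGs, where 3733 of 21613 genes tested were DEGs. Both this comparison and the response of nahG to LTMH use the nahG CT libraries, so that they are not independent. Beside the lower members, the 4 nahG CT libraries had AMS levels of 751, 675, 738 and 842 FPKM, above the 468, 212, 619 and 327 FPKM of WT CT.

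In LTMH 3 members differed between nahG and WT. GLO1 (−0.35 ± 0.0802 SE, adjusted p = 0.0174) and TM29 (−0.25 ± 0.0702 SE, adjusted p = 0.0351) were lower and TAGL1 (0.31 ± 0.0533 SE, adjusted p = 0.00654) was higher, 3 of 8 members against 24.8% of all genes, and none was a DEG (9.42%). TAGL1 passed in every alternative tried, TM29 lost it in 7 of 12 and GLO1 in 3 of 12. Without WT LTMH replicate 3, nahG LTMH replicate 2 or nahG LTMH replicate 3, 1 member passed. Of all genes, 3435 of 21616, 4031 of 21619 and 3204 of 21622 passed in these fits. GLO2 had 2010.3, 2019 and 2075 FPKM in nahG LTMH and 1769, 1927 and 2010.1 in WT LTMH (0.10, adjusted p = 0.309), groups next to each other. TAGL1 was thus the member that was higher in nahG than in WT at both temperatures.

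NR and asCCD7 differed from WT in 1 member or none. In CT, TAG1 was higher in NR, with 213, 264, 252 and 247 FPKM beside 164, 200.0, 167 and 194 in WT (0.44 ± 0.0925 SE, adjusted p = 0.00794), 1 of 8 against 25.7% of all genes with no DEG (10.6%). Also in CT, TAGL1 was higher in asCCD7, with 51.3, 49.6, 51.9 and 53.6 FPKM beside 39.1, 41.6, 44.0 and 43.7 in WT (0.28 ± 0.0555 SE, adjusted p = 0.0194), 1 of 8 against 7.57% with no DEG (3.81%). It did not pass without WT CT replicate 1. In LTMH, TAGL1 was higher in NR (0.27 ± 0.0560 SE, adjusted p = 0.0340), 1 of 8 against 9.71% with no DEG (4.34%), and it lost this in 6 of 12 alternatives, among them those without any 1 of the WT libraries or without NR LTMH replicate 1 or 3. asCCD7 had no passing member in LTMH by edgeR, where 7.72% of all genes passed and 5.53% were DEGs. TAP3 and TAGL1 had an unadjusted p-value under 0.05. DESeq2 passed TAP3 alone, where 3159 of 21500 genes tested passed. A single fit over all 29 libraries passed both, where 5638 of 21637 genes tested passed. All comparisons with WT at a temperature share the same WT libraries.

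Several members varied between libraries of a group in the opposite direction to the tapetal genes AMS and TomA108. Over deviations from the group means in the 29 libraries, Pearson's r of log2 CPM (reads per 1e6 with TMM library sizes) with AMS was −0.92 for TAG1, −0.76 for TM29, −0.75 for GLO1, −0.75 for TM5, −0.65 for TAP3 and −0.62 for GLO2. It was −0.10 for TAGL1 and −0.09 for TM6. With TomA108, an abundant tapetal transcript, r went from −0.81 for TAG1 to 0.01 for TAGL1. The points share libraries and their scaling, so that these values are a description. They include the 4 libraries whose markers stood apart, and r was computed neither without these nor for all genes. Across groups, nahG CT combined the highest AMS and TomA108 levels with the lowest TAG1, TM29, TM5, GLO1 and GLO2 levels, while asCCD7 CT replicate 4 had 30.2 FPKM of AMS and the highest levels of its group for every member that passed the filter except TM6. Of the other tapetal markers, CYP703A2, CYP704B1 and WBC27 averaged highest in nahG CT, and MS10 and TDF1 in WT CT. No r with the members was computed for these. Whether the tapetal share of the RNA accounts for part of the members' differences was not tested.

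**Figure D4:**
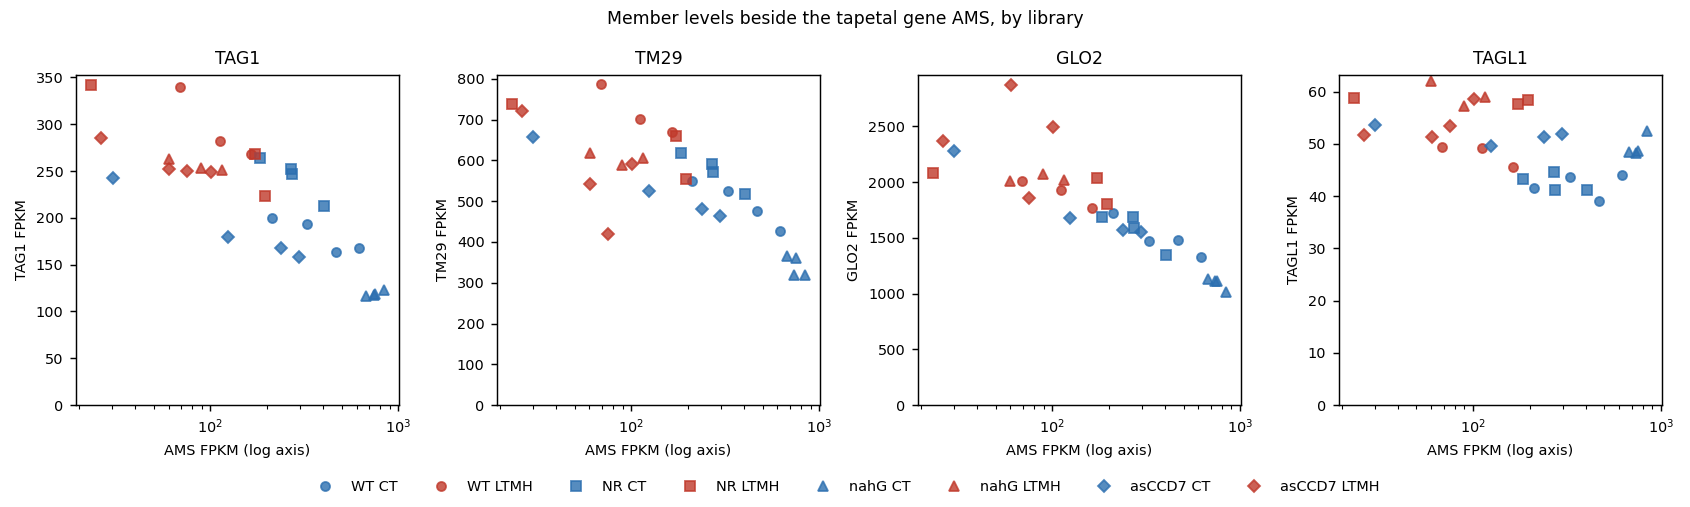
FPKM of TAG1, TM29, GLO2 and TAGL1 (y axes, from 0) against FPKM of the tapetal gene AMS (x axis, log scale), 1 point for each of the 29 libraries. Colour gives temperature (blue CT, red LTMH) and shape the line. TAG1, TM29 and GLO2 are lowest where AMS is highest, in nahG CT, and TAGL1 shows no such order within groups (r = −0.10).

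The members also resembled each other to different degrees. Over the log2 CPM of the 29 libraries, GLO1 and TM5 had r = 0.932, GLO1 and TAG1 0.922, TAG1 and TM29 0.923 and GLO2 and TM5 0.922, and TM5 was the gene ranked 3 of 21636 in likeness to GLO1. GLO1 and GLO2 had 0.839, and the DEF-type genes TAP3 and TM6 only 0.230. TAGL1 stayed at or below 0.503 with each other member. High values of r were common among all genes, with 549 genes above 0.8 for GLO1 and 933 for TAG1. In likeness to TAG1, TM29 was ranked 87. TM5 was ranked 18 for GLO2, and GLO2 268 for GLO1. Outside the list, the gene most like GLO2 was JOINTLESS (Solyc11g010570), a MADS-box gene needed for the flower stalk abscission zone, at 0.962. The most like TAG1 was Solyc10g086520 (0.977), TM29 Solyc08g080370 (0.968), TM5 Solyc01g106060 (0.948) and GLO1 Solyc05g008000 (0.941). For TAGL1 it was Solyc07g042550 (0.919), for TM6 Solyc01g079950 (0.835) and for TAP3 Solyc02g086080 (0.798).

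Among 14 other floral MADS-box genes of a fixed list, 12 were in the tables and 10 passed the filter. Averaged over lines, 5 of the 10 rose and 2 fell in LTMH, 3 and 1 of them as DEGs, with a median log2 fold change of 0.268 beside 4.37e-04 for all genes. In WT 3 rose and 0 fell, in nahG 6 rose and 1 fell, in NR 3 and 2, and in asCCD7 3 and 1. Of all genes tested, 59.4% passed in either direction on average, 35.3% in WT, 51.4% in nahG, 18.7% in NR and 12.2% in asCCD7. JOINTLESS rose as a DEG in 3 of 4 lines, with 2.46, 2.68, 1.78 and 2.20 FPKM in nahG CT and 11.1, 10.4 and 10.4 in nahG LTMH (log2 fold change 2.22, adjusted p = 1.78e-06). Its call in NR was lost in 7 of 13 alternatives (adjusted p of up to 0.147). FUL2, a FRUITFULL-like gene of fruit ripening, rose in all 4 lines and was a DEG in 3, with 17.9, 16.3, 17.2 and 18.9 FPKM in WT CT and 29.1, 31.2 and 34.3 in WT LTMH (0.84, adjusted p = 1.67e-04). In asCCD7, 1 of these 3 lines, it lost the call in 4 of 14 alternatives (adjusted p of up to 0.0720). MBP10, a FRUITFULL-like gene, was a DEG in 3 lines but stayed at or below 0.426 FPKM in every library, and it lost the call in 6 of 12 alternatives in nahG, 2 of 13 in asCCD7 and 1 of 12 in WT.

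Of 8 floral regulators outside the MADS-box family, 6 passed the filter, and 2 rose and 1 fell on average (median log2 fold change 0.320), 3 of 6 where 59.4% of all genes passed. WUS, the WUSCHEL homeobox gene of stem cell maintenance, rose as a DEG in WT and nahG, from 8.39, 10.6, 9.03 and 8.85 FPKM in nahG CT to 34.7, 32.8 and 33.5 in nahG LTMH (1.87, adjusted p = 2.60e-07). SPL/HYDRA, the tomato SPOROCYTELESS gene, fell as a DEG in the same lines, from 7.03, 2.99, 8.31 and 5.56 FPKM in WT CT to 2.01, 1.78 and 2.18 in WT LTMH (−1.59, adjusted p = 0.00635). It did not pass in NR (−0.23) or asCCD7 (−0.48). TAG1 rose in WT and nahG, and a link between these genes was not tested.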

How the data were processed

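Anther RNA was sequenced in 29 libraries. The authors aligned reads to tomato genome SL3.0 with annotation ITAG3.2 using HISAT2 2.0.5 and counted them per gene with featureCounts 1.5.0-p3, and the deposited tables hold whole-number counts and FPKM per gene and library. FPKM was used for levels and ratios. The library size that the deposited FPKM imply followed the TMM size, with a ratio that varied 1.014-fold over the libraries. Its ratio to counted reads varied 1.27-fold. Counts were tested with edgeR 4.0.16 in R 4.3.3 (TMM sizes, filterByExpr with a minimum count of 10, quasi-likelihood F test), each comparison fitted on the libraries of its groups, the averaged comparison on all 29, with Benjamini-Hochberg adjustment over all genes with reads in those libraries (21601 to 21637 of the 21637 that passed the filter). A DEG had an adjusted p under 0.05 and a fold of at least 1.5. Scripts were tested on simulated data. Ratios were tested with exact two-sided permutation tests.

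The members and gene lists were chosen with earlier results of these data known. Genes outside the members were named where they were DEGs in the same direction in at least 2 of the 4 lines. Alternatives were DESeq2 1.42.0, RLE sizes, other filters, 1 fit over all libraries, a replicate block, RPKM from counts, log2(FPKM + 1) and leaving out each library. The fit without 4 libraries and the averaged ratio tests were added after seeing the data. SL3.0 coordinates and sequences were not used here.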

Additional observations from a re-analysis of the deposited data

Results flagged for a closer look

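A value stood apart from the other 3 of its group in 7 of 55 sets of 4 values, where chance flags about 1 in 20, a rate that does not hold for the 3 sets of AGL11 among the 7, with 14 reads or fewer and mostly 0. In asCCD7 CT replicate 4, the library with the lowest tapetal sum, GLO2 was at 2283 FPKM beside 1555 to 1679 in the other replicates, and AGL11 at 0.568 FPKM (14 reads) beside at most 0.0844. In asCCD7 LTMH replicate 3, a library with LAT52 reads, TAG1 was at 286 FPKM beside 249 to 253, and AGL11 at 0.0817 FPKM (2 reads) beside 0. In nahG CT replicate 4, GLO1 was at 284 FPKM beside 306 to 310.3 and TAGL1 at 52.5 FPKM beside 48.2 to 48.7. AGL11 was at 0.130 FPKM (3 reads) in WT CT replicate 2 beside 0.

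Responses to LTMH that differed from that of WT by the edgeR interaction test were those of GLO2 (0.56 on the log2 scale, adjusted p = 0.00542), TAG1 (0.40, adjusted p = 0.0430) and TAP3 (0.34, adjusted p = 0.0429) in nahG and TAGL1 (0.26, adjusted p = 0.0490) in NR.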

How the results depend on the processing

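Without the threshold on fold change, the number of passing members was 7 in place of 1 for LTMH against CT in WT, 6 in place of 3 in nahG, 1 in place of 0 in NR and 8 in place of 1 averaged over lines. Against WT in CT it was 7 in place of 1 for nahG and 1 in place of 0 for NR and for asCCD7, and in LTMH 3 for nahG and 1 for NR in place of 0. For the difference of responses it was 3 for nahG and 1 for NR in place of 0. Leaving out 1 library at a time gave 1 to 2 DEGs among the members for LTMH against CT in WT, 0 to 1 in asCCD7 and averaged over lines, 0 to 2 for nahG against WT in CT, and 0 to 1 for the difference of responses in NR and in nahG.

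The sign changed when single libraries were left out for TAP3 in the response of nahG (−0.0277 to 0.0577 on the log2 scale) and of asCCD7 (−0.0617 to 0.0631), for TM29 in the response of asCCD7 (−0.0454 to 0.218), and for the DEF-type to GLO-type ratio of NR against WT in CT (−0.0615 to 0.0132) and of asCCD7 against WT in LTMH (−0.00422 to 0.0915). None of these had passed.

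Replicate numbers name no shared origin in the labels, and same-numbered libraries did not deviate together in all group pairs (lowest r −0.41), so the numbers were not taken as pairs. With a replicate block the number of DEGs among the members stayed the same in each comparison, 1 for LTMH against CT in WT, where 2 members passed the adjusted p-value in place of 7. Of the 21619 genes tested there, 4626 passed with the block in place of 7626. Depth limits AGL11 (at most 14 reads) and no other member. The causes of these changes were not tested.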

Other observations

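Of the other floral MADS-box genes, the FRUITFULL-like gene MBP20 (Solyc02g089210) was picked out after its values were seen. Its FPKM was 28.7, 39.1, 54.3 and 67.3 in nahG CT and 2.88, 2.10 and 2.83 in nahG LTMH (log2 fold change −4.18, edgeR adjusted p = 7.19e-06). In NR CT it was 35.2, 2.73, 3.03 and 2.03, in WT CT 3.33, 3.23, 5.99 and 2.89 and in WT LTMH 4.47, 7.33 and 3.77. In asCCD7 it was 1.17, 1.15, 2.68 and 1.39 in CT and 2.86, 2.40, 1.06 and 1.29 in LTMH. FUL1, a FRUITFULL-like gene of fruit ripening, also picked out after its values were seen, had 8.52, 6.10, 9.55 and 18.7 FPKM in nahG CT and 33.4, 27.9 and 25.3 in nahG LTMH (1.44, adjusted p = 0.00383), and 35.1, 38.3, 36.9 and 34.8 in NR CT and 22.7, 18.3 and 28.5 in NR LTMH (−0.64, adjusted p = 0.0168). These lines responded in opposite directions, a difference that was not tested.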
